A study of Mus musculus with 33 samples.

Results

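Glucocorticoid-responsive transcription was examined through 9 genes picked by symbol, Fkbp5, Tsc22d3, Zbtb16, Sgk1, Klf9, Ddit4, Errfi1, Nr3c1 and Cebpd, out of 56414 rows of the expression table, 36109 of which had reads. Each symbol matched a single row, and all 9 passed the filter on low values in both sets of libraries. Tumour-free C57Bl/6 mice were either untreated or drank water containing 0.5% nicotinamide (NAM, a form of vitamin B3), and polyadenylated RNA of lymph nodes and spleens was sequenced. The libraries labelled lymph node numbered 3 untreated, 2 at 1 day of NAM, 4 at 3 days and 4 at 14 days. The libraries labelled spleen numbered 5 in each of the same 4 groups. The labels and the study's methods give different intervals for renewing the NAM. According to the study's methods its mice were female, within an age range given for all experiments together. The labels give no sex, age, hour of collection or cage, and do not say whether an animal gave both organs or whether organs were pooled. P-values therefore measure the spread between these libraries. Corticosterone, the main glucocorticoid of the mouse, was not measured in the data used here.

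Glucocorticoids are adrenal hormones that rise with stress, fasting and the daily rhythm. They enter cells, bind the receptor encoded by Nr3c1 and send it to the nucleus, where it raises the transcription of some genes and holds back inflammatory ones. Lymphocytes are sensitive to the hormone, which alters their homing and can drive them into cell death. Among the genes induced by the receptor in many tissues are Fkbp5, which encodes a co-chaperone that lowers the receptor's own affinity for the hormone, and Tsc22d3, which encodes GILZ, a leucine zipper protein that restrains inflammatory signalling. Several of the 9 genes also answer other signals, such as low energy or oxygen for Ddit4 and growth factors for Errfi1.

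The tissue labels were checked against defining transcripts before any comparison, and 9 of 10 organ markers went against them without overlap over the 33 libraries. Glycam1, a mucin gene of lymph node high endothelial venules, had normalised read counts of 1.59 to 12.4 over the 13 libraries labelled lymph node and of 108167 to 214210.0 over the 20 labelled spleen. Spic, a transcription factor gene of splenic red pulp macrophages, had counts of 6117 to 10491 under the lymph node label and of 774 to 1295 under the spleen label. Madcam1, an addressin gene, was the 1 marker that went with the labels, at 577 to 956 under the lymph node label and 137 to 402 under the spleen label. Nkx2-5, another splenic marker, was at 0 in all libraries labelled spleen and at 167 to 267 under the lymph node label. Each set is therefore named only by its label, although 9 of 10 markers pointed to the other organ. Libraries held 30424968 to 46733974 whole reads under the lymph node label and 18325061 to 54830743 under the spleen label, and the 2 sets were scaled separately. In the library labelled lymph node replicate 1 at 1 day, 7 pancreatic acinar genes summed to a normalised count of 108027, against 627 to 1268 in the other 12 libraries of that label. The calls of the 9 genes at 1 day are given with and without it below, whereas marker sums, the list of repressed genes and correlations across libraries are given with it only. The libraries labelled spleen at 3 days held 43632016 to 54830743 reads, above the 18325061 to 31486631 of untreated, so depth and the 3 days cannot be told apart there.

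Promoter sequence from RefSeq (GRCm38.p6) was available for 6 of the 9 genes, Fkbp5, Tsc22d3, Sgk1, Klf9, Ddit4 and Errfi1, in 14 windows that each cover 250 bases before a transcription start. The receptor binds DNA as a dimer, and its element was searched on both strands as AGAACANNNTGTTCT, together with the shorter hexamer AGAACA or its complement TGTTCT, both of which are contained in the full element. The full element was found in 3 of 32851 windows of this length (0.00913%), and 1 of them belongs to Sgk1. The hexamer was found in 5284 windows (16.1%), and in 4 of the 14 windows of the 9 genes, 3 of Sgk1 and 1 of Tsc22d3. These are matches of letters, which do not show binding. The stretches shown are the window of Sgk1 that holds the full element, the part of the Tsc22d3 window that lies outside annotated exons and holds a hexamer, and, for contrast, windows of Ddit4 (outside exons) and Errfi1 that hold neither. Capitals mark the hexamers, and in Sgk1 the pair separated by 3 bases forms the full element, which begins 189 bases before the start.
Sgk1, chr10:21993640-21993889, plus strand: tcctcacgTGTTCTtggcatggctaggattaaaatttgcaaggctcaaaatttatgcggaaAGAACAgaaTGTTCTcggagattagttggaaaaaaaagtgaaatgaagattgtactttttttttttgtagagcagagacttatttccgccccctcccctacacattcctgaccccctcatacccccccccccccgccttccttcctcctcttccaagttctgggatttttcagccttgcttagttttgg
Tsc22d3, chrX:140600660-140600772, minus strand: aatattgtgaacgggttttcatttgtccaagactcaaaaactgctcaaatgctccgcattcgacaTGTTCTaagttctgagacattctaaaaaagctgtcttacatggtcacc
Ddit4, chr10:59951835-59952020, minus strand: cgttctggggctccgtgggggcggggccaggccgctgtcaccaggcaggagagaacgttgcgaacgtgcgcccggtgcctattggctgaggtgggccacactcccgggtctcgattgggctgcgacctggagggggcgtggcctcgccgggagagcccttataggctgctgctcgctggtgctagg
Errfi1, chr4:150854820-150855069, plus strand: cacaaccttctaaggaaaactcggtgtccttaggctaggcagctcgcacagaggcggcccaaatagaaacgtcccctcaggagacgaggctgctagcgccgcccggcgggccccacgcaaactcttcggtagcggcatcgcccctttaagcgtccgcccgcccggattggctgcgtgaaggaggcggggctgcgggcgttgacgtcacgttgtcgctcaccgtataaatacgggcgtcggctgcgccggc

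The comparison of 1 day of NAM with untreated asked whether the genes moved soon after NAM reached the drinking water. Under the lymph node label, 5 of the 9 genes were higher, Errfi1, Ddit4, Tsc22d3, Cebpd and Klf9, and none was lower (limma, adjusted p under 0.05 over 18215 genes). Of all genes tested, 1.21% were called in that comparison and 0.884% were called higher. The 9 genes were chosen with earlier results of these data known, so setting them against these shares is a description. The median log2 fold change was 0.91 over the 9 genes and -0.00048 over all genes tested. The libraries at 1 day lay above every untreated library for 7 of the 9 genes, a pattern that 17.1% of all genes tested showed.

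Errfi1 encodes an inhibitor of the EGF receptor family that is made in a feedback loop, and its row spans chr4:150853915-150868887 of mm10. Its normalised read counts under the lymph node label were 912, 914 and 1133 in untreated, 4454 and 5606 at 1 day, 1321, 1369, 1182 and 1863 at 3 days, and 2231, 1652, 1343 and 1482 at 14 days. No treated library overlapped the untreated ones, and the libraries at 1 day stood far above all others. The count was 5.09-fold that of untreated at 1 day (95% interval 3.84 to 6.74, limma adjusted p = 1.53e-05). At 14 days the log2 fold change was 0.75 ± 0.16 (SE, limma adjusted p = 0.0396), and at 3 days it was 0.53 ± 0.16 (limma adjusted p = 0.135).

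Ddit4, also called REDD1, encodes an inhibitor of the mTORC1 growth kinase, and its row spans chr10:59949675-59951770. Its counts were 3754, 3508 and 5841 in untreated, 16978 and 15433 at 1 day, 6382, 6082, 5519 and 9467 at 3 days, and 10084, 8014, 7389 and 6919 at 14 days. The libraries at 1 day and at 14 days lay above every untreated library, whereas 1 library at 3 days fell below the highest untreated one. At 1 day the count was 3.81-fold that of untreated (95% interval 2.79 to 5.20, limma adjusted p = 0.000195). The change at 14 days was 1.88-fold (95% interval 1.45 to 2.45, limma adjusted p = 0.0233).

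Tsc22d3, on chrX:140539528-140600522, had counts of 9518, 10963 and 16814 in untreated, 29884 and 33119 at 1 day, 16726, 17361, 15046 and 22021 at 3 days, and 22566, 18581, 22033 and 22915 at 14 days. The 2 libraries at 1 day were the highest of the 13, and replicate 3 of untreated reached into the range of the libraries at 3 days. The count rose 2.61-fold at 1 day (95% interval 2.00 to 3.40, limma adjusted p = 0.000936) and 1.78-fold at 14 days (95% interval 1.42 to 2.22, limma adjusted p = 0.0153). At 3 days the log2 fold change was 0.55 ± 0.15 (SE, limma adjusted p = 0.1).

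Cebpd and Klf9 encode transcription factors, a C/EBP family member of inflammatory and differentiating cells and a Krüppel-like factor, respectively. Cebpd counts were 710.4, 712 and 787 in untreated, 1604 and 1625 at 1 day, 1005, 1056, 1099.6 and 1156 at 3 days, and 913, 828, 951 and 1022 at 14 days. No treated library overlapped the untreated ones, and those at 1 day were apart from all others. Cebpd rose 2.19-fold at 1 day (95% interval 1.90 to 2.53, limma adjusted p = 1.53e-05) and was the only one of the 9 genes called at 3 days, at 1.46-fold (95% interval 1.30 to 1.65, limma adjusted p = 0.0018), where 1.24% of all genes tested were called. Its row, chr16:15887006-15891031, shares 562 exonic bases with Spidr on the opposite strand, and strand use in counting was not given in the sources used here, so reads of the pair cannot be told apart there.

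Klf9, on chr19:23141225-23166911, had counts of 489.9, 506 and 631 in untreated, 878 and 1165 at 1 day, 507, 601, 625 and 665 at 3 days, and 999, 699, 596 and 722 at 14 days. At 1 day both libraries lay above all untreated ones, with a fold change of 1.88 (95% interval 1.44 to 2.45, limma adjusted p = 0.0203). That call ended without either library at 1 day (limma adjusted p = 0.0614 without replicate 1 and 0.204 without replicate 2), and without untreated replicate 1 (0.0792) or untreated replicate 2 (0.0857).

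The other 4 genes did not pass the test under the lymph node label at any duration. Fkbp5, on chr17:28398753-28517524, had counts of 900.2, 766 and 693 in untreated, 1036 and 1963 at 1 day, 1110.3, 626, 790.1 and 900.1 at 3 days, and 1323, 817, 804 and 1079 at 14 days. Both libraries at 1 day exceeded all untreated ones, but they were far apart, and the log2 fold change of 0.87 had a 95% interval of 0.33 to 1.41 (limma adjusted p = 0.115). Sgk1, a kinase gene whose product acts on ion channels and cell survival, spans chr10:21882184-21999900 and carries the full element shown above. Its counts were 1550.4, 1646 and 1939 in untreated, 1991 and 2368 at 1 day, with 1607 to 1721 after 3 days and 1719 to 2174 after 14. The 2 libraries at 1 day were above all untreated ones, with a log2 fold change of 0.35 (95% interval 0.12 to 0.58, limma adjusted p = 0.138).

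The receptor gene Nr3c1, on chr18:39410547-39490676, had counts of 845, 882 and 817 in untreated and of 688 and 936 at 1 day under the lymph node label. Counts at 3 and 14 days were 708 to 815 and 759 to 830.3. The untreated range lay inside that of 1 day, and the log2 fold change was -0.08 (95% interval -0.32 to 0.16). At 3 days all 4 libraries lay below every untreated one, a pattern that 7.25% of all genes tested showed, with a log2 fold change of -0.14 (95% interval -0.34 to 0.06, limma adjusted p = 0.504). Zbtb16, which encodes the zinc finger factor PLZF of innate-like lymphocytes, spans chr9:48654297-48836230 and had few reads. Its counts ranged from 57.2 to 88.8 over the 13 libraries, with groups that overlapped throughout, and its log2 fold changes were -0.06 at 1 day, -0.01 at 3 days and -0.02 at 14 days.

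**Figure D1:**
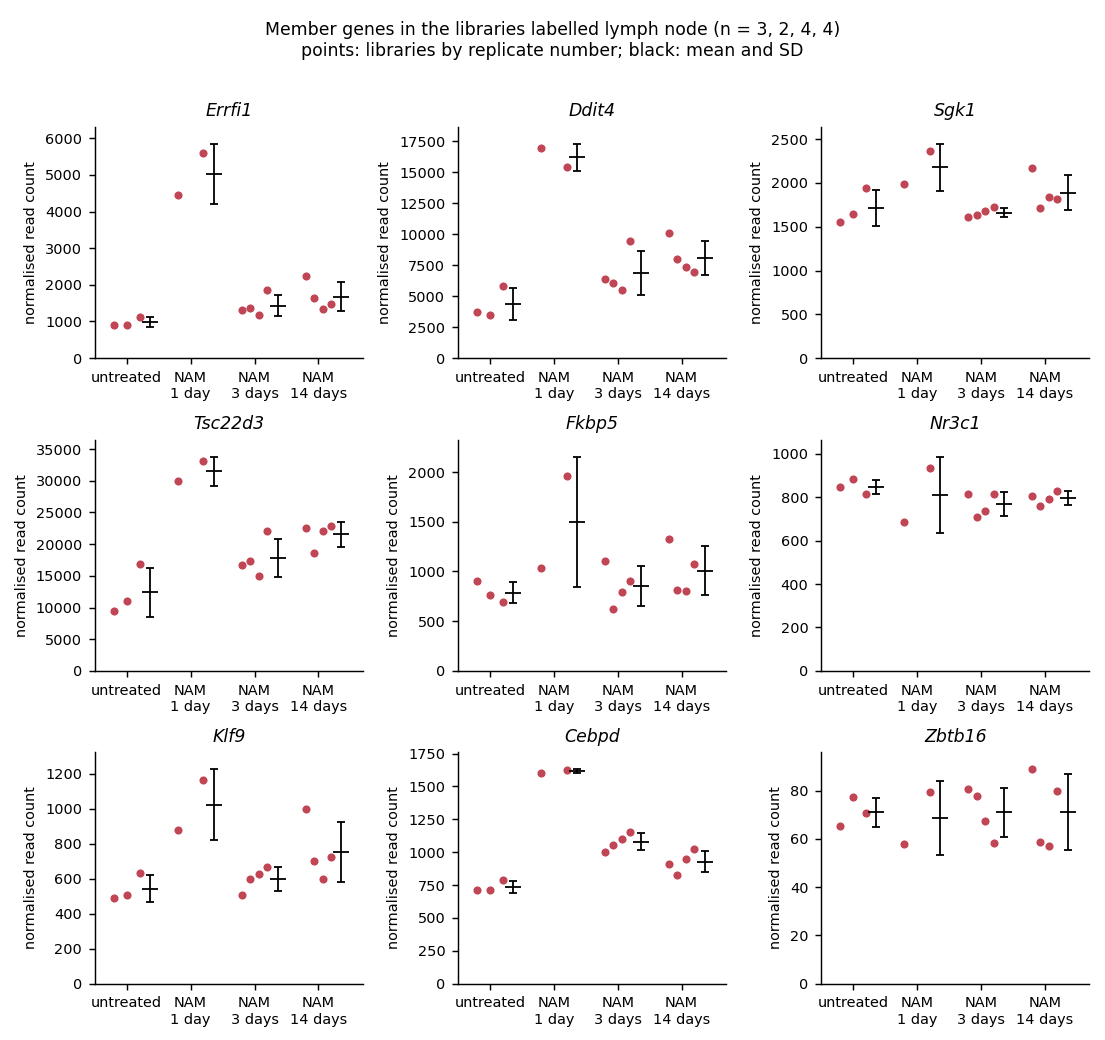
Normalised read count (vertical axes, from 0) of the 9 genes in each of the 13 libraries labelled lymph node, in panels by gene and in columns by group, with black bars for mean and SD. Errfi1, Ddit4, Tsc22d3 and Cebpd are highest in the 2 libraries at 1 day, while Zbtb16 overlaps in all groups.

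Without replicate 1 at 1 day, which held the pancreatic transcripts, 4 of the 9 genes were called higher, Errfi1, Ddit4, Tsc22d3 and Cebpd, among 69 genes called in all (0.379%), and the median log2 fold change of the 9 was 1.14. The same 4 were called without replicate 2, among 119 (0.653%). Replicate 2 had a pancreatic acinar sum of 1093, and Cela2a, Ctrb1, Pnlip and Clps were at 0 in it as in the untreated libraries. Of the 5 genes called, replicate 2 held the higher count of Errfi1, Tsc22d3, Klf9 and Cebpd, and replicate 1 that of Ddit4. Leukocyte transcripts also moved at 1 day, where limma called 1.21% of all genes tested and 15% had an unadjusted p under 0.05. Summed over their marker lists, macrophage genes came to 109852 and 111888 at 1 day against 84267 to 84870.2 in untreated, with 2 of 6 called higher. Neutrophil genes came to 23575 and 29671 against 11765 to 21052, with 0 of 6 called by limma, edgeR or DESeq2 and 6 of 6 at an unadjusted p under 0.05. T cell genes came to 31429 and 33866 against 27535 to 29271, with 0 of 6 called by limma or edgeR, 1 by DESeq2 and 4 at an unadjusted p under 0.05, and B cell genes, at 127224 and 139931 against 138828 to 144207, overlapped. Of the lymph node markers that passed the filter 1 of 4 was called higher. Limma and edgeR called 0 of 5 splenic and 0 of 4 muscle markers, DESeq2 called 0 and 1, and 0 and 1 had an unadjusted p under 0.05. The part of these cells in the result was not tested. In bulk RNA, fewer cells of a type cannot be told apart from less RNA per cell.

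At 3 and 14 days the changes under the lymph node label were smaller. The median log2 fold change over the 9 genes was 0.15 at 3 days and 0.33 at 14 days, against 0.00046 and 0.0023 over all genes tested. At 14 days Ddit4, Tsc22d3 and Errfi1 were called higher, 3 of 9, where 0.791% of all genes tested were called and 0.11% were called higher. These comparisons share the same 3 untreated libraries. The calls at 14 days rested on them, since 0 of the 9 genes were called without untreated replicate 1 or without untreated replicate 2, when 93 and 31 genes were called in all. They also numbered 0 when only the 2 groups were fitted, 1 with the replicate block, 2 in edgeR and 4 in DESeq2. Only Tsc22d3 was called without replicate 1 of 14 days, and Errfi1 was also lost without untreated replicate 3 or replicate 2 or 4 of 14 days (limma adjusted p of 0.053, 0.0625 and 0.0523). Cebpd at 14 days had a log2 fold change of 0.33 (95% interval 0.16 to 0.50, limma adjusted p = 0.0698).

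The erythroid marker genes moved at these times too. Their sum was 1056090 to 2171490 in untreated libraries labelled lymph node, 237197 to 1012650 at 3 days and 573729 to 854350.0 at 14 days. At 3 days 5 of 7 were called lower, and at 14 days 1 of 7, where 1.24% and 0.791% of all genes were called. All 7 had an unadjusted p under 0.05 at both times, where 14.8% and 11.8% of all genes had such a p. Their median log2 fold change was -3.18 at 3 days and -1.89 at 14 days. Of the splenic markers 1 of 5 was also called lower at 14 days. The part of the erythroid and splenic markers in the results for the 9 genes was not tested.

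A direct comparison of 14 days with 1 day under the lymph node label called 3 of the 9 genes lower, Errfi1, Cebpd and Ddit4, where 0.401% of all genes tested were called and 0.346% were called lower. Errfi1 was 0.329-fold its level at 1 day (95% interval 0.252 to 0.430, limma adjusted p = 0.000503), Cebpd 0.574-fold (0.502 to 0.656, limma adjusted p = 0.000503) and Ddit4 0.495-fold (0.368 to 0.666, limma adjusted p = 0.0382). Ddit4 was no longer called without either library at 1 day (limma adjusted p = 0.236 and 0.162), or without replicate 2, 3 or 4 of 14 days (0.0867, 0.0806 and 0.0615). It was also lost with no filter, quantile normalisation, library weights or the replicate block (0.062, 0.0711, 0.147 and 0.0626). Without replicate 1 of 1 day the log2 difference was -1.77 for Errfi1 and -0.81 for Cebpd, both still called (limma adjusted p = 0.0213 for each). Tsc22d3 had a log2 difference of -0.55 (95% interval -0.92 to -0.19, limma adjusted p = 0.162). In the same comparison 2 of 6 neutrophil and 1 of 6 macrophage markers were called lower, with sums at 14 days of 10469.6 to 17117 and 78728 to 99200.1, below both libraries at 1 day. Their part in the result was not tested. A test of any difference among the 4 groups called Errfi1, Cebpd, Ddit4, Tsc22d3 and Klf9 (limma F test, adjusted p of 9.02e-05, 9.02e-05, 0.000931, 0.00272 and 0.0364), where 1.76% of all genes tested were called. The Klf9 call in that test ended without 7 of the 13 libraries, among them each at 1 day and untreated replicates 1 and 2, and with no filter or the replicate block (limma adjusted p = 0.0592 and 0.104).

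Under the spleen label, 2 of the 9 genes were called at 1 day. Nr3c1 was higher and Sgk1 was lower, where 16.6% of all genes tested were called, 8.56% higher and 8.05% lower, so that the share of 2 in 9 lay near that of all genes. The median log2 fold change of the 9 genes was -0.26, against 0.0054 over all genes tested. At 3 days Nr3c1 alone was called, as higher, where 5.55% of all genes were called and 2.82% were higher. At 14 days limma called 0 of the 9 genes and 0 of all 18243 genes, 510 of which had an unadjusted p under 0.05, while edgeR called 0 genes and DESeq2 1 gene, which was none of the 9. Of the 9, 0 had an unadjusted p under 0.05.

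Nr3c1 counts under the spleen label were 689, 653, 633, 759 and 707 in untreated and 1193, 1111, 1030.2, 1142 and 976 at 1 day. They were 731, 1025, 917, 993 and 1090.4 at 3 days and 709, 739.8, 642, 784 and 643 at 14 days. All 5 libraries at 1 day and 4 of 5 at 3 days lay above every untreated library, and replicate 1 of 3 days lay among them. The receptor transcript rose 1.58-fold at 1 day (95% interval 1.38 to 1.81, limma adjusted p = 0.000409) and 1.37-fold at 3 days (95% interval 1.20 to 1.57, limma adjusted p = 0.0131). The call at 3 days ended when only those 2 groups were fitted (limma adjusted p = 0.0549). At 14 days the log2 fold change was 0.03 (95% interval -0.17 to 0.23), and the level was 0.645-fold that at 1 day (95% interval 0.563 to 0.740, limma adjusted p = 0.00104). Nr3c1 was also the only one of the 9 genes called for any difference among the 4 groups (limma F test, adjusted p = 0.000528), where 12.4% of all genes tested were called.

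Sgk1 counts under this label were 2074, 1870.0, 2285, 2191 and 2169 in untreated, 1519.7, 1498, 1651, 1676 and 2010.3 at 1 day, 2232, 1660.3, 1663, 1866 and 1753 at 3 days, and 1740.2, 1991, 1798, 2046 and 2032 at 14 days. At 1 day 4 of 5 libraries were below every untreated library, and the log2 fold change was -0.35 (95% interval -0.53 to -0.16, limma adjusted p = 0.0129). At 3 days it was -0.21 (limma adjusted p = 0.17).

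Cell markers under the spleen label were compared at 1 day as well. There 16.6% of all genes tested were called, 8.05% were called lower and 30.9% had an unadjusted p under 0.05. Limma called 2 of 7 B cell rows and 1 of 6 macrophage genes lower, with sums of 48147 to 67906 against 59049 to 76402 in untreated for B cells and of 24830.4 to 33912 against 29735 to 38522 for macrophages, which overlapped. T cell genes, at 32685 to 58477 against 38571 to 56441.0, were called in 0 of 6 by limma, edgeR or DESeq2, and 0 had an unadjusted p under 0.05. Neutrophil genes, at 931 to 7937 against 769 to 1668, were called in 0 of 5 by limma, 1 by edgeR and 2 by DESeq2, with 2 at an unadjusted p under 0.05. Of lymph node and muscle markers 1 of 5 and 1 of 3 were called lower at 1 day. At 3 days 1 of 6 macrophage and 1 of 5 lymph node markers were lower, where 2.74% of all genes were. At 14 days against 1 day, where 10.6% of all genes were called, 2 of 7 B cell rows and 1 of 3 muscle markers were higher. Of 6 macrophage markers 1 was higher and 1 lower. The part of these cells in the results for Nr3c1, Sgk1 and Cebpd was not tested.

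Errfi1, Ddit4 and Tsc22d3, which had risen under the lymph node label, did not pass the test in libraries labelled spleen at any duration. Their log2 fold changes at 1 day were -0.37 for Errfi1 (95% interval -0.76 to 0.02), -0.49 for Ddit4 (-1.0 to 0.02) and -0.24 for Tsc22d3 (-0.73 to 0.24). Ddit4 counts were 5459, 3252, 8845, 6366 and 4835 in untreated and 2909, 2669.8, 3482, 5629 and 5788 at 1 day, and Tsc22d3 counts were 7613, 4448, 11829, 8937 and 7423 against 4617, 4929.8, 5562, 10118 and 8943. Both genes varied widely within each of these groups, and the groups overlapped. Errfi1 counts were 1401, 1673, 2027, 1773 and 2328 in untreated and 989, 1510.4, 1464, 1551 and 1586 at 1 day.

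Fkbp5 counts under the spleen label spanned 1429 to 1988 without NAM, 1489.8 to 2583 after 1 day of it, 1586 to 1888 after 3 days and 1393 to 1805 after 14, and all groups overlapped. Its log2 fold change at 1 day was 0.16 (95% interval -0.10 to 0.41). Cebpd counts were 1354, 1498, 1713, 1295 and 1406 in untreated, 987, 1129, 1591, 1147 and 1282 at 1 day, 1902, 1263, 1578, 1454 and 1322 at 3 days, and 1681, 1596, 1463, 1839 and 1740.4 at 14 days. The gene was lowest in mean at 1 day and highest at 14 days, and between those durations it differed 1.37-fold (95% interval 1.15 to 1.63, limma adjusted p = 0.0205). In that comparison 2 of the 9 genes, Cebpd and Nr3c1, were called, where 10.6% of all genes tested were. The Cebpd call ended without replicate 1 of 1 day (limma adjusted p = 0.0522).

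**Figure D2:**
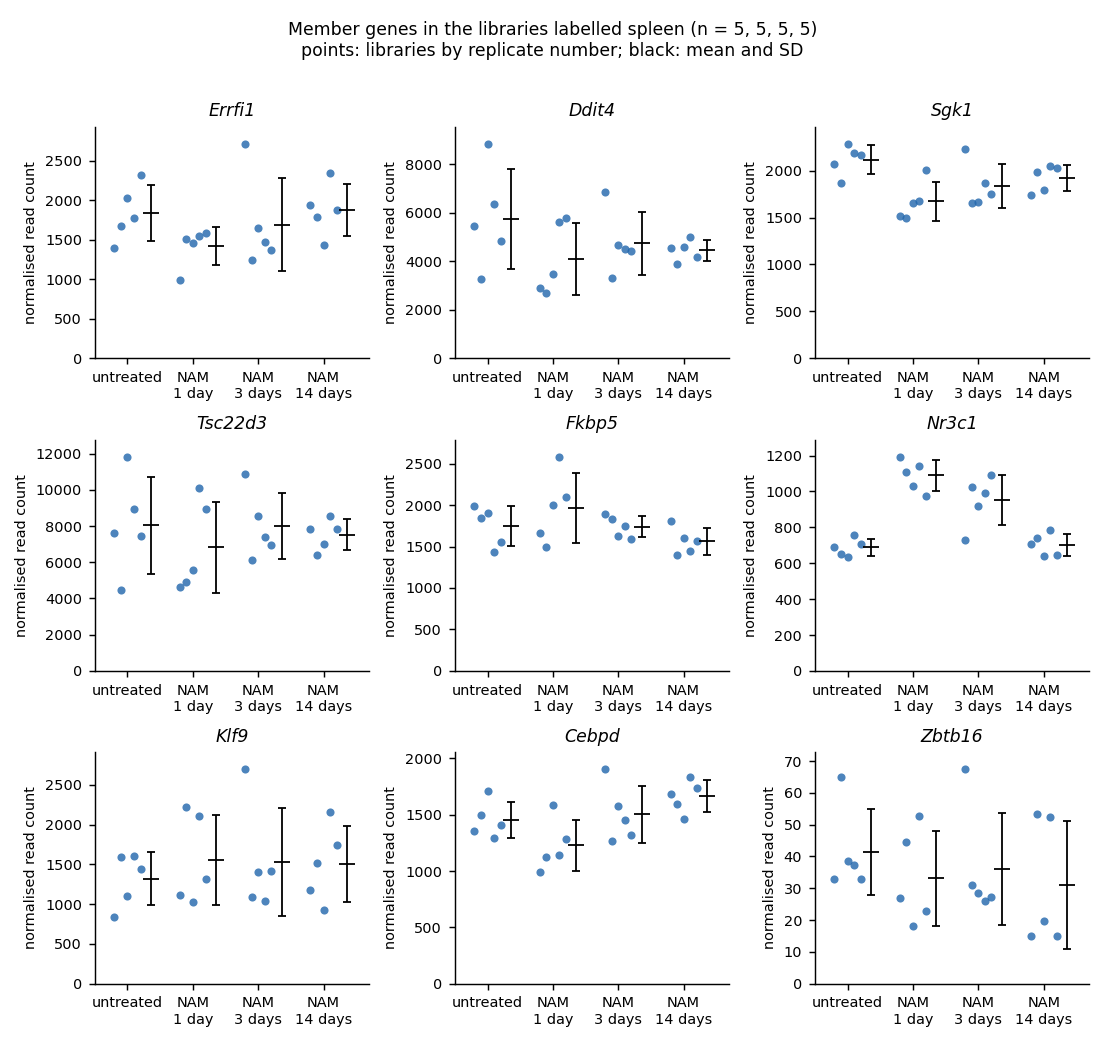
Normalised read count (vertical axes, from 0) of the 9 genes in each of the 20 libraries labelled spleen, in panels by gene and in columns by group, with black bars for mean and SD over 5 libraries. Nr3c1 is higher at 1 day, from 976 to 1193, than in untreated, from 633 to 759, and the other genes overlap between these groups.

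Klf9 and Zbtb16 had wide spreads within the groups labelled spleen. Klf9 ranged from 839.8 to 1602 without NAM, from 1023 to 2226 after 1 day of it, from 1039 to 2692 after 3 days and from 921 to 2153 after 14, and Zbtb16 from 14.9 to 67.3 over the 20 libraries. Adipocyte transcripts varied over the same libraries, with sums of 8 marker genes from 32476 to 178100.0 without NAM, 106188 to 459370.0 after 1 day of it, 52226 to 218264 after 3 days and 46121 to 227659 after 14. At 1 day 1 of the 8 was called higher, where 8.56% of all genes were. With the mean log2 level of those markers as a covariate, an alternative chosen after the data were seen, the log2 fold change of Klf9 at 1 day turned from 0.21 to -0.24 and that of Zbtb16 moved from -0.37 to -0.80, neither of them called. Nr3c1 kept a log2 fold change of 0.64 at 1 day under that covariate (limma adjusted p = 0.000558), and Sgk1 one of -0.35 (limma adjusted p = 0.0142).

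**Figure D3:**
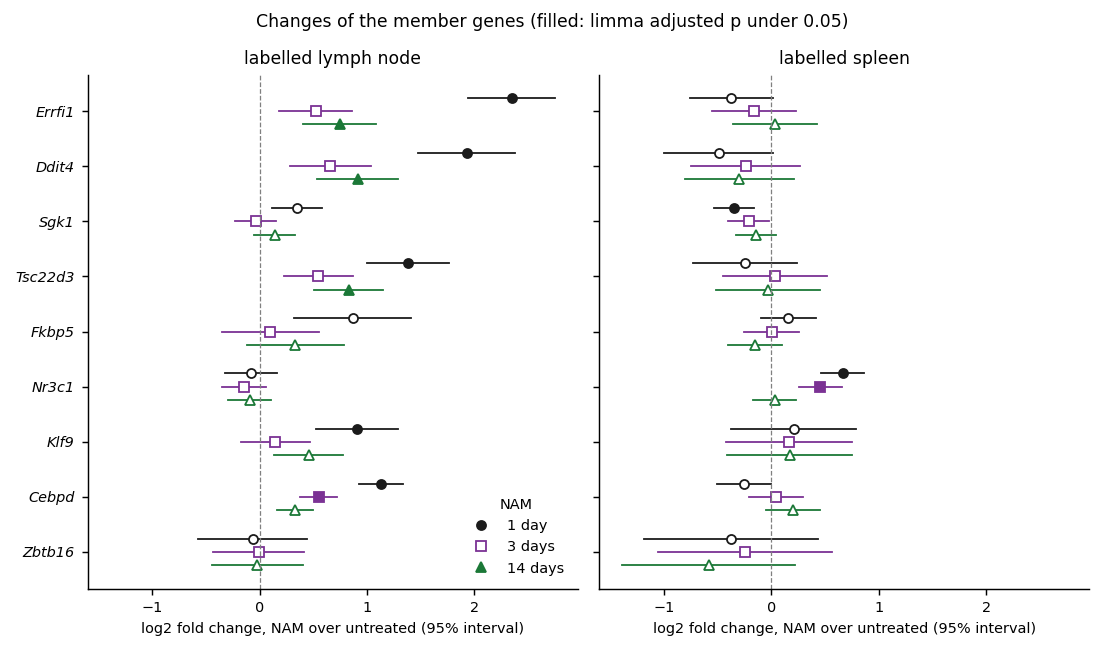
Log2 fold change of NAM over untreated (horizontal axis) with its 95% interval for the 9 genes at 1, 3 and 14 days, left for libraries labelled lymph node and right for libraries labelled spleen, with filled symbols for limma adjusted p under 0.05. Errfi1 lies at 2.35 at 1 day on the left and at -0.37 on the right, and Nr3c1 lies at 0.66 at 1 day on the right only.

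Whether the change at 1 day differed between the labels was tested directly, in a model of both sets. It was called for 6 of the 9 genes, where 1.69% of 17147 genes were called. The change under the lymph node label exceeded that under the spleen label by a log2 value of 2.72 for Errfi1 (95% interval 2.08 to 3.36, limma adjusted p = 1.81e-05), 2.42 for Ddit4 (1.61 to 3.22, limma adjusted p = 0.00199) and 1.63 for Tsc22d3 (0.87 to 2.38, limma adjusted p = 0.0211). It also exceeded it by 1.39 for Cebpd (1.02 to 1.76, limma adjusted p = 0.000147) and by 0.70 for Sgk1 (0.38 to 1.01, limma adjusted p = 0.0183). For Nr3c1 the difference was -0.74 (-1.06 to -0.42, limma adjusted p = 0.0147). The test treats the libraries of both labels as coming from different animals.

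Errfi1, Ddit4 and Cebpd were called in that test without any single library of untreated or 1 day. The Nr3c1 call ended without the lymph node label's replicate 1 of 1 day (limma adjusted p = 0.169) or its untreated replicate 2 (0.0524). Tsc22d3 was not called without replicate 1 or 2 of 1 day or untreated replicate 1 or 2 of the lymph node label (limma adjusted p of 0.0842, 0.115, 0.0680 and 0.0661), nor Sgk1 without its replicate 2 of 1 day or its untreated replicate 1 or 2 (0.152, 0.0606 and 0.0574). At 3 days the labels differed for Nr3c1 alone, by a log2 value of -0.60 (95% interval -0.89 to -0.31, limma adjusted p = 0.0396), where 0.735% of all genes were called. That call ended without any of 12 of the 17 libraries, with limma adjusted p up to 0.139. At 14 days they differed for 0 of the 9 genes by limma, with an unadjusted p under 0.05 for Ddit4, Errfi1, Tsc22d3 and Sgk1 (0.00167, 0.0166, 0.0132 and 0.0473), where 0.14% of all genes were called and 4.85% had such an unadjusted p.

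**Figure D4:**
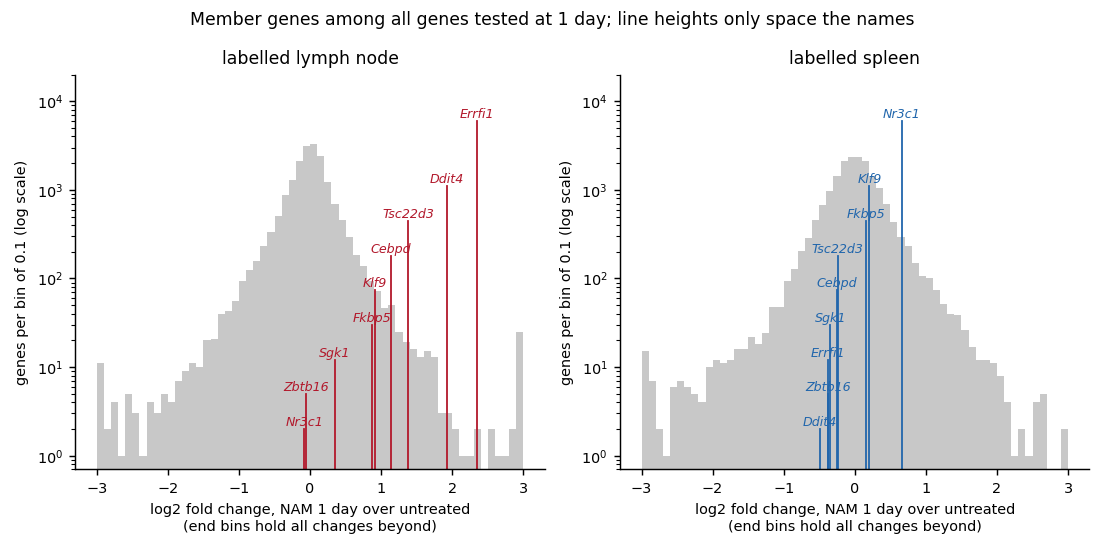
Distribution of the log2 fold change at 1 day (horizontal axis) over all genes tested (grey bars, genes per bin of 0.1, log vertical axis), with vertical lines at the values of the 9 genes, left for the lymph node label and right for the spleen label. On the left 7 of 9 lines lie above 0, from Sgk1 at 0.35 to Errfi1 at 2.35, and on the right 6 of 9 lie below 0.

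Untreated levels of the 9 genes under the labels are given as a description, with no test. They were set across tables scaled separately, and the median log2 difference over 17147 genes, lymph node label minus spleen label, was 0.16. Klf9 was 2.43-fold, Fkbp5 2.22-fold, Cebpd 1.97-fold and Errfi1 1.87-fold higher in mean under the spleen label, with no overlap of libraries. Zbtb16 was 1.72-fold and Nr3c1 1.23-fold higher under the lymph node label, also with no overlap. Of all genes, 61.2% did not overlap between the untreated libraries of the labels, so 6 of the 9 lay near that share. Tsc22d3, Ddit4 and Sgk1 overlapped between the labels.

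Transcripts of the receptor's partners were described from 13 genes, the chaperones and co-chaperones that hold the receptor ready for hormone, the enzymes that activate or inactivate corticosterone, the mineralocorticoid receptor and the coregulators. Under the lymph node label 0 of the 12 that passed the filter were called at 1 day by limma or edgeR, against 1 by DESeq2 and 5 at an unadjusted p under 0.05, where DESeq2 called 2.96% of all genes and 15% had such a p. At 3 days limma called 1 of them, where 1.24% of all genes were called. It was Hsd11b1, the enzyme that regenerates active hormone. Its counts were 2066, 1979 and 2324 in untreated and 2614, 2866, 2888 and 2376 at 3 days, above every untreated library, a 1.26-fold rise (95% interval 1.12 to 1.42, limma adjusted p = 0.0483). The call ended in edgeR and without untreated replicate 1 or 2 or replicate 1, 2 or 3 of 3 days, with limma adjusted p up to 0.276. At 14 days 0 of 12 were called by limma, edgeR or DESeq2, with 1 at an unadjusted p under 0.05. Under the spleen label 3 of 13 were called at 1 day, 2 higher and 1 lower, where 16.6% of all genes tested were called. Hsp90aa1 and Fkbp4, a chaperone and a co-chaperone of the receptor, were 1.27-fold and 1.17-fold higher (limma adjusted p = 0.0135 and 0.0308). At 3 days 2 of 13 were called, 1 higher and 1 lower, where 5.55% of all genes were. The higher one was Ptges3, which encodes the co-chaperone p23, at 1.35-fold (limma adjusted p = 0.0189). The Fkbp4 call ended without any of 4 of 10 libraries and that of Ptges3 without 2, with limma adjusted p of up to 0.0846 and 0.0698. At 14 days 0 of 13 were called by limma, edgeR or DESeq2, or reached an unadjusted p under 0.05.

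A list of 26 other genes known to be induced by glucocorticoids showed 9 higher and 0 lower at 1 day under the lymph node label, where 1.21% of all genes were called. This list too was chosen with earlier results of these data known. Its median log2 fold change was 0.47. The 4 with the smallest p were Cxcr4, Pdk4, Pik3ip1 and Sesn1. Cxcr4, a chemokine receptor gene of leukocyte homing, had counts of 4555, 4522 and 6536 in untreated and 14208 and 16136 at 1 day, a 2.95-fold rise (95% interval 2.35 to 3.71, limma adjusted p = 7.12e-05). Pdk4, whose kinase keeps pyruvate from being burned, went from 310.3, 244 and 602 to 2155 and 3006, a 7.11-fold rise (95% interval 4.33 to 11.7, limma adjusted p = 0.000437). Neither gene's groups overlapped. Pik3ip1, an inhibitor of PI3 kinase, rose 1.86-fold (limma adjusted p = 0.000936) and the stress-induced Sesn1 1.60-fold (limma adjusted p = 0.00343).

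The other 5, Il7r, Txnip, Nfkbia, Il1r2 and Dusp1, named here after their values were seen, rose 1.37- to 2.21-fold. Without replicate 1 of 1 day 5 of the 26 were called, Cxcr4, Il7r, Pdk4, Pik3ip1 and Sesn1, and without replicate 2 there were 4, Cxcr4, Nfkbia, Pdk4 and Pik3ip1. Several of these genes answer other signals as well, Pdk4 to fasting and Dusp1 to growth factors. Per1, a clock gene and a direct target of the receptor, had a log2 fold change of 0.60 that did not pass the limma test, and it too was named after its values were seen.

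The metallothionein genes Mt1 and Mt2, which glucocorticoids and metals induce, went the other way at later times under the lymph node label. Mt2 counts were 608, 879 and 569 in untreated, 349 and 364 at 1 day, 252, 117, 184 and 198 at 3 days, and 188, 129.6, 299.6 and 238 at 14 days, and no treated library overlapped the untreated ones. Mt2 fell to 0.27-fold at 3 days (95% interval 0.186 to 0.393, limma adjusted p = 0.00103) and to 0.304-fold at 14 days (limma adjusted p = 0.0041), and Mt1 to 0.656-fold and 0.663-fold (limma adjusted p = 0.00918 and 0.0169). The Mt1 calls ended without untreated replicate 2 (limma adjusted p = 0.0807 at 3 days and 0.140 at 14 days). Cxcr4 was 1.70-fold higher at 3 days and 1.84-fold at 14 days (limma adjusted p = 0.00534 and 0.00376), and Nfkbia 1.22-fold higher at 3 days (limma adjusted p = 0.0464). The Nfkbia call ended without any of 5 of 7 libraries (limma adjusted p up to 0.231). In all, 2 of the 26 were higher and 2 lower at 3 days, where 1.24% of all genes were called, and 1 higher and 2 lower at 14 days, where 0.791% were. Without untreated replicate 2 the calls at 3 days came down to Mt2 alone.

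**Figure D5:**
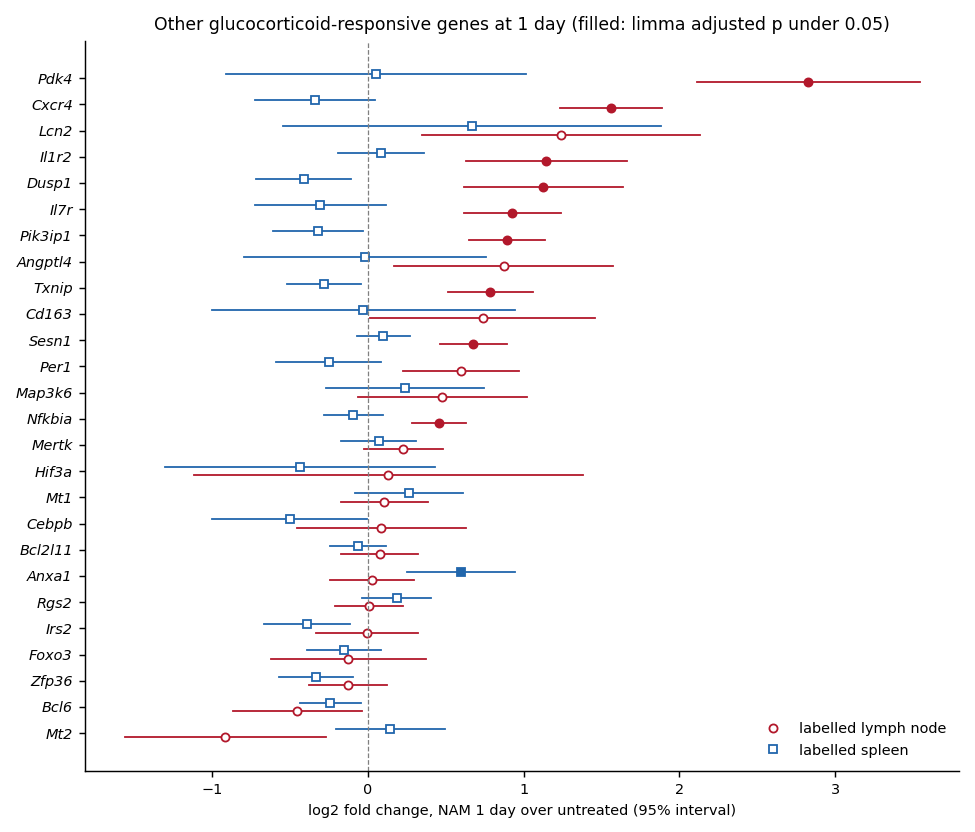
Log2 fold change at 1 day over untreated (horizontal axis) with its 95% interval for 26 other glucocorticoid-responsive genes, circles for the lymph node label and squares for the spleen label, filled where limma adjusted p was under 0.05. Under the lymph node label 9 are filled, from Nfkbia at 0.46 to Pdk4 at 2.83, and under the spleen label Anxa1 alone is filled, at 0.60.

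For the spleen label 1 of the 26 was called at 1 day, as higher, where 16.6% of all genes were called and 8.56% were higher. It was Anxa1, the annexin A1 gene of resolving inflammation. Its counts were 1539, 1910.5, 1600.2, 1758 and 2018 in untreated and 2012, 4178, 2704, 2376 and 2468 at 1 day, a 1.51-fold rise (95% interval 1.19 to 1.92, limma adjusted p = 0.0182), and 1 library at 1 day lay below the highest untreated one. At 3 days Foxo3 and Irs2, genes of insulin signalling, were lower at 0.742-fold and 0.709-fold (limma adjusted p = 0.0333 and 0.0359), where 5.55% of all genes were called and 2.74% were lower. These calls ended without any of 8 and of 7 of the 10 libraries. At 14 days 0 of 26 were called by limma, edgeR or DESeq2, or reached an unadjusted p under 0.05. The difference between the labels at 1 day was called for 9 of the 26, where 1.69% of all genes were called, with log2 values from 0.55 for Nfkbia to 2.78 for Pdk4 (limma adjusted p of 0.0402 and 0.0434). It was called for 5, Cxcr4, Dusp1, Pik3ip1, Sesn1 and Txnip, without the lymph node label's replicate 1 of 1 day, where 0.338% of all genes were called. It was called for 4 without that label's replicate 2 of 1 day or its untreated replicate 1 or 2, where 0.566%, 0.612% and 0.437% of all genes were called, and for 5 without untreated replicate 1 or 3 of the spleen label (0.986% and 1.35%).

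Of 12 cytokine, chemokine and enzyme genes that glucocorticoids repress, such as Il1b, Tnf and Ptgs2, limma and edgeR called 0 in any comparison with untreated, with 12 passing the filter under the lymph node label and 9 under the spleen label. DESeq2 called 1 at each duration under the lymph node label, where it called 2.96%, 2.71% and 2.09% of all genes at 1, 3 and 14 days. By an unadjusted p under 0.05 there were 5, 1 and 4, where 15%, 14.8% and 11.8% of all genes had such a p. Under the spleen label DESeq2 called 0, with 1 at an unadjusted p under 0.05 at 1 day and 0 later. Their median log2 fold change at 1 day was 0.12 under the lymph node label and 0.085 under the spleen label.

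Genes whose levels ran most alike with 2 of the 9 across libraries are given as a description, since they share libraries, depth and treatment. Over the 13 libraries labelled lymph node, the row most like Tsc22d3 among non-members was Cxcr4 (Pearson r = 0.97), followed by Zfp1, Grrp1, Gm30316 and Pdk4 (0.94, 0.92, 0.91 and 0.90). Over the 20 labelled spleen it was again Cxcr4 (r = 0.86), followed by Bbc3, Chmp1b, Zfp599 and Esrrg (0.79, 0.75, 0.74 and 0.71). The rows most like Fkbp5 were Adra1b under the lymph node label (r = 0.96), then Ppp1r21, Rapgef5, Pla2g7 and Pkp2 (0.91, 0.91, 0.91 and 0.89), and Kif2a under the spleen label (r = 0.78), then Itgae, Galnt1, Rrp12 and Mpp6 (0.78, 0.77, 0.76 and 0.76). Among the 9 genes themselves, the 36 pairs had a median r of 0.60 under the lymph node label, from -0.20 to 0.95, and of 0.18 under the spleen label, from -0.72 to 0.94.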

How the data were processed

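RNA of tumour-free mice was measured in 13 libraries labelled lymph node and 20 labelled spleen, grouped by their titles. The authors deposited gene-level normalised read counts, a linear signal made by dividing reads by a DESeq2 size factor, with mm10 and the annotation of the sequencing service named in the header. The submitters' processing notes name FastQC, STAR 2.4.0, SAMtools, Picard and DESeq2. Columns left unmapped numbered 0. Values of each library were whole multiples of 1 step (within 0.01), so the reads behind them were recovered (100.0% of values came out whole in the library with the fewest), and depth limits the precision of low genes. Comparing replicates in 56 pairs found 0 with identical values.

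The main test was limma 3.58.1 (R 4.3.3) on log2(normalised count + 1) (with trend, two-sided, all 4 groups of a label together, Benjamini-Hochberg adjustment over genes with a mean of at least 10, threshold 0.05). This scale understates changes of low genes. Both labels were joined in 1 model to test their difference. Recovered reads were tested with edgeR 4.0.16 and DESeq2 1.42.0 as alternatives. Other alternatives were the pseudocount, filter, scaling, groups in the fit, library weights, a replicate block, an unadjusted rule and each library left out. The adipocyte covariate was added after the data were seen. The test was checked on simulated data.

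The members and gene lists were chosen with earlier results of these data known. All 9 members are named whatever their values, and of 3 further lists the rule named at most 4 called genes per comparison with untreated, those of smallest p. Of these, 1 gene is not reported here, and 6 genes named beyond the rule are marked as chosen after their values were seen. The 5 rows most like Fkbp5 and Tsc22d3 by Pearson r are also named. Lists of 10 tissue or cell types served as markers. Replicate numbers did not pair libraries, since deviations from group means of libraries with the same number correlated at -0.11 to 0.079 (lymph node label) and -0.50 to 0.47 (spleen label).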

Additional observations from a re-analysis of the deposited data

Results flagged for a closer look

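In groups of 4 or 5 libraries, 54 sets of member values were searched for a library far from the rest, and 5 were found, where chance marks about 1 in 20. All 5 lay under the spleen label. Replicate 1 of 3 days held 3 of them, with normalised read counts of 67.3 for Zbtb16 (others 26.0 to 30.9), 2692 for Klf9 (1039 to 1421) and 2715 for Errfi1 (1243 to 1654). The other two were Zbtb16 in untreated replicate 2, at 64.9 (32.9 to 38.6), and Errfi1 in replicate 1 of 1 day, at 989 (1464 to 1586). Without replicate 1 of 3 days, the comparison of 3 days with untreated called 2 of the 9 genes, Nr3c1 and Sgk1, and 2782 of all genes, against 1 and 1013 with it. Without replicate 3 of 3 days the count of all genes was 158. The 8 adipocyte marker genes summed to 193231 in replicate 1 of 3 days (the other four 52226 to 218264) and to 178100.0 in untreated replicate 2, the highest of its group.

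The change under NAM differed between the labels for 6 genes at 1 day. The log2 difference, lymph node label minus spleen label, was 2.72 for Errfi1, 2.42 for Ddit4, 1.63 for Tsc22d3, 1.39 for Cebpd, 0.70 for Sgk1 and -0.74 for Nr3c1 (limma adjusted p of 1.81e-05, 0.00199, 0.0211, 0.000147, 0.0183 and 0.0147). At 3 days it was -0.60 for Nr3c1 (limma adjusted p = 0.0396).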

How the results depend on the processing

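Under the lymph node label at 3 and 14 days, where groups hold 3 or 4 libraries, the number of the 9 genes called rested on single libraries. Of 10 organ markers, 9 pointed to the other organ under each label, without overlap over the 33 libraries, so results are named by label only. Depth limits Zbtb16, the gene with the fewest reads. Replicate numbers did not pair the libraries within a label, and pairing between the labels was not tested. With the replicate block, the count at 14 days under the lymph node label went from 3 to 1, Tsc22d3, and Klf9 at 1 day and for any difference and Ddit4 for 14 against 1 day were no longer called (limma adjusted p = 0.066, 0.104 and 0.0626). The cause of the changes below was not tested.

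With each library left out in turn, members called under the lymph node label numbered 4 to 5 at 1 day (5 with all), 1 to 3 at 3 days (1; 3 without untreated replicate 3), 0 to 3 at 14 days (3; 0 without untreated replicate 1 or 2 and 1 without replicate 1 of 14 days) and 2 to 3 for 14 against 1 day (3). Under the spleen label they numbered 2 to 3 at 1 day (2), 1 to 2 at 3 days (1; 2 without its replicate 1), 0 at 14 days, 1 to 3 for 14 against 1 day (2; 1 without replicate 1 of 1 day) and 1 to 3 for any difference (1; 3 without replicate 1 of 3 days, and 2 without untreated replicate 2 or replicate 3 or 5 of 1 day). The difference between labels ranged from 3 to 6 at 1 day (6; 3 without untreated replicate 2 of the lymph node label) and from 0 to 3 at 3 days (1; 3 without replicate 1 of 3 days of the spleen label, and 0 without any of 12 other libraries).

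Of the other settings, calling by unadjusted p (0.05) and a 1.5-fold change gave 1 at 1 day, 0 at 3 days and 1 for 14 against 1 day under the spleen label. Fitting only the 2 groups compared gave 0 at 3 days under the spleen label and 0 at 14 days under the lymph node label. Library weights gave 2 at 3 days and 2 for any difference under the spleen label, 3 at 3 days under the lymph node label and 3 for the difference between labels at 3 days, which was 0 with no filter. Quantile normalisation and DESeq2 each gave 3 for any difference under the spleen label.

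The number called among all genes moved by over 1.5 times in places. Calling by unadjusted p and fold gave 1497, 620 and 943 under the spleen label at 1 day, 3 days and 14 against 1 day (3030, 1013 and 1940 by adjusted p), 204 at 14 days (0), and 894, 615, 630 and 779 under the lymph node label at 1, 3, 14 and 14 against 1 day (221, 226, 144 and 73). DESeq2 gave 1686 for spleen 3 days, and 540, 493, 381 and 385 for those 4 lymph node comparisons. Library weights gave 4722 for spleen 3 days, 557, 278 and 13 for lymph node 3 days, 14 days and 14 against 1 day, and 882 and 1944 for the difference between labels at 1 and 3 days (290 and 126). No filter gave 572 for spleen 3 days, 139 and 47 for lymph node 1 day and 14 against 1 day, and 151 for the difference at 1 day. Fitting only the 2 groups gave 140, 55 and 39 for spleen 3 days, lymph node 14 days and 14 against 1 day, and the replicate block 132 for lymph node 1 day. For any difference, weights gave 4764 under the spleen label (2260) and DESeq2 980 under the lymph node label (321). Quantile normalisation gave 47 for lymph node 14 against 1 day, and the adipocyte covariate 2180, 3 and 3066 for spleen 3 days, 14 days and 14 against 1 day. With each library left out, calls among all genes ranged, under the spleen label, from 158 to 2782 at 3 days (lowest without its replicate 3, highest without its replicate 1), from 1214 to 1816 for 14 against 1 day (lowest without replicate 1 of 14 days) and from 1699 to 3452 for any difference (highest without replicate 1 of 3 days). For the lymph node label the range was 66 to 125 at 1 day, 85 to 302 at 3 days, 31 to 159 at 14 days and 147 to 385 for any difference, each lowest without untreated replicate 2, and from 17 to 128 for 14 against 1 day (lowest without replicate 2 of 14 days, highest without its replicate 1). For the difference between labels they ranged from 58 to 413 at 1 day (lowest without replicate 1 of 1 day under the lymph node label), from 33 to 883 at 3 days (lowest without untreated replicate 2 of that label, highest without replicate 1 of 3 days under the spleen label) and from 4 to 26 at 14 days (24 with all).

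Signs turned only for changes of the 9 genes that were not called. Under the spleen label, log2 changes of Klf9 became -0.087, -0.16 and 0.12 with library weights at 1 day, 3 days and 14 against 1 day, and -0.24, -0.037, -0.024 and 0.21 with the adipocyte covariate at 1, 3, 14 and 14 against 1 day. That covariate gave -0.020 for Errfi1 at 14 days and 0.028 for Zbtb16 at 14 against 1 day. DESeq2 gave -0.0057 for Fkbp5 and -0.011 for Tsc22d3 at 3 days, and library weights -0.026 for Cebpd at 3 days and 0.11 for Tsc22d3 at 14 days. Under the lymph node label, Zbtb16 became 0.049, 0.033 and 0.0048 at 3 days (quantile, weights, replicate block) and 0.020, 0.082, 0.0069 and 0.011 at 14 days (quantile, weights, edgeR, DESeq2), and Nr3c1 0.0085 for 14 against 1 day (quantile). For the difference between labels at 3 days, weights gave -0.026 for Fkbp5 and 0.33 for Klf9, and quantile normalisation 0.013 for Klf9.

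With libraries left out, ranges that crossed 0 under the spleen label were, at 3 days, -0.048 to 0.10 for Cebpd, -0.067 to 0.052 for Fkbp5, -0.062 to 0.28 for Klf9 and -0.17 to 0.19 for Tsc22d3; at 14 days, -0.058 to 0.13 for Errfi1, -0.010 to 0.066 for Nr3c1 and -0.23 to 0.12 for Tsc22d3; and for 14 against 1 day, -0.18 to 0.12 for Klf9. Under the lymph node label they were, for Zbtb16, -0.29 to 0.16 at 1 day, -0.072 to 0.081 at 3 days, -0.13 to 0.074 at 14 days and -0.18 to 0.27 for 14 against 1 day; for Nr3c1, -0.30 to 0.14 at 1 day and -0.23 to 0.21 for 14 against 1 day; and at 3 days -0.034 to 0.24 for Fkbp5 and -0.10 to 0.057 for Sgk1. The difference between labels at 3 days ranged from -0.036 to 0.24 for Fkbp5 and from -0.13 to 0.21 for Klf9.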
